A study of Mus musculus with 16 samples.

Results

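Transforming growth factor beta (TGF-beta) signalling was followed in sorted mouse microglia through 10 genes, namely the ligand gene Tgfb1, the receptor genes Tgfbr1 and Tgfbr2, the SMAD genes Smad2, Smad3, Smad4 and Smad7, and the corepressor genes Ski, Skil and Tgif1. They were taken by symbol from a table of 17951 genes, and all 10 had a row in it and passed the filter on low counts that the authors had applied. In every library each of them rested on at least 286 reads, the lowest being Smad7 in 1 TG Me-X04+ library and the highest, with 54486 reads, Tgfbr1 in 1 TG Me-X04- library. Values are log2 RPKM (reads divided by gene length and by the scaled library size), so that levels can be set side by side between genes as well as between libraries.

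The 16 RNA-seq libraries came from microglia of WT mice (7 libraries) and of 5xFAD transgenic (TG) mice, whose cells were sorted into a Me-X04- (5 libraries) and a Me-X04+ population (4 libraries). 5xFAD mice carry mutant human transgenes of familial Alzheimer disease driven by the neuronal Thy1 promoter and form amyloid plaques. All mice, WT included, had received methoxy-X04 (Me-X04), a fluorescent dye that binds aggregated amyloid beta. By the methods, the cells were sorted as live single cells positive for CD11b, CD45 and CX3CR1, so a Me-X04+ cell is one that carried stained amyloid. The labels give 2 months as the age of the WT mice and 6 months as that of the TG mice, with the strain 5xFAD for all, while the methods of the study give other ages that are closer together. By the labels, age and genotype cannot be told apart in any comparison with WT. Equal replicate numbers of the 2 TG populations stand for 1 animal by the labels, which makes 4 pairs and leaves replicate 5 of TG Me-X04- without a partner. In what follows, dye-positive stands for TG Me-X04+ and dye-negative for TG Me-X04-, and WT is named as such although its cells lacked the dye too. As these were bulk samples, fewer cells of a type and less RNA per cell cannot be told apart.

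TGF-beta is secreted in a latent form and, once released, binds the type II receptor TGFBR2, which then recruits and phosphorylates the type I receptor TGFBR1. The type I receptor phosphorylates SMAD2 and SMAD3, which join the common SMAD4, enter the nucleus and act on target genes. SMAD7 blocks the active receptor, and SKI, SKIL (also called SnoN) and TGIF1 are nuclear proteins that bring repressor complexes to SMADs. In the brain this pathway is known for keeping microglia in their homeostatic state, and microglia that lack the receptor lose homeostatic marker genes.

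The results below turn on the 2 receptor genes, which did not move together, so the sequence around the start of each is shown from RefSeq (GRCm38.p6), 300 bases from 250 before to 50 after the start on the strand of the gene. Tgfbr2 (minus strand) is at chr9:116175314-116175613 and Tgfbr1 (plus strand, the first of 2 starts in the table) at chr4:47352972-47353271. Capitals mark the letters CAGAC (a SMAD box) and GGGCGG (a GC box), each searched on both strands.
Tgfbr2: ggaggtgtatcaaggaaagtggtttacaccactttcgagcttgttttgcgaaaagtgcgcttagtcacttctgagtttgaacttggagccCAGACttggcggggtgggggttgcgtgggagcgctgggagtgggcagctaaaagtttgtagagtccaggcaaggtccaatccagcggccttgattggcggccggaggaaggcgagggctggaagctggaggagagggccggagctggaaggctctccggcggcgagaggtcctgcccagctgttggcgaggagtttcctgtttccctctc
Tgfbr1: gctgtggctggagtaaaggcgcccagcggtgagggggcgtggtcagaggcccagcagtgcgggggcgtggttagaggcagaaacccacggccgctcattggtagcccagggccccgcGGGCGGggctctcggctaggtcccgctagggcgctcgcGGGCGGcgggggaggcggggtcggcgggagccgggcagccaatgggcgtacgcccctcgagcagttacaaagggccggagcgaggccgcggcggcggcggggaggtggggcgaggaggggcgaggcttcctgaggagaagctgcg

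The Tgfbr2 window held 1 SMAD box and no GC box, and the Tgfbr1 window held 2 GC boxes and no SMAD box. Among the 32851 promoter windows of the same length, 49.6% held a SMAD box and 35.7% a GC box. Neither window held the AP-1 letters TGANTCA or the PU.1 letters GAGGAAGT on either strand, which 7.81% and 3.2% of all windows did. The windows differed in base composition, with 59% G and C in Tgfbr2 and 74.7% in Tgfbr1. By the mouse annotation (GRCm38), the Tgfbr2 gene spans chr9:116084293-116175360 and the Tgfbr1 gene chr4:47353222-47414931, both protein coding. The exons of none of the 10 genes overlap an exon of another gene, while the span of Smad4 overlaps that of 1 other gene.

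The libraries held 15623664 to 22119327 reads on listed genes in WT, 17216633 to 25184600 in dye-negative cells and 22430251 to 27579017 in dye-positive cells. The share of reads on mitochondrial genes differed between these groups, with 10.96-24.1% for WT, 18.2-35.6% for dye-negative and 27.2-44.8% for dye-positive libraries. The libraries also fell into 2 sets on the first principal component of their deviations from the group means, which held 37.8% of that variance. Set A has WT replicates 1 to 3 and replicates 1 and 2 of each TG group, and set B the other 9 libraries. The methods name 2 sequencers without saying which library ran on which, so what the sets stand for was not tested. All 10 microglial markers were listed, with a summed level of 4293 to 8441 RPKM across the 16 libraries. The summed level of the listed markers of other cells was far lower, and that of 6 border macrophage markers, of which Lyve1, Pf4, Cd163, Cbr2 and F13a1 were at 0 reads in at least 1 library, was 2.48-5.97 RPKM in WT, 1.74-6.88 in dye-negative cells and 2.76-20.8 in dye-positive cells.

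In WT microglia the receptors stood above the rest of the pathway. Tgfbr1 had a level of 8.21 ± 0.21 (SD, n = 7), higher than 99.6% of all listed genes, and Tgfbr2 a level of 6.08 ± 0.33, higher than 98.4%. The corepressor genes Ski (5.59 ± 0.06) and Skil (5.54 ± 0.27) came next, above 97.4% and 97.3% of listed genes, then the ligand gene Tgfb1 (4.68 ± 0.29, above 94.2%). The SMAD genes were lower, with Smad2 at 3.64 ± 0.46, Smad3 at 3.62 ± 0.32, Smad7 at 2.99 ± 0.69 and Smad4 at 2.98 ± 0.07. Tgif1 was the lowest of the 10 at 2.68 ± 0.26, still above 71.0% of listed genes.

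Some neighbours in this order did not differ beyond their spread. Ski was above Skil in 4 of 7 WT libraries, Smad2 above Smad3 in 4 of 7 and Smad7 above Smad4 in 4 of 7, each pair with a mean difference under its SD. Smad3 was above Smad7 in 5 of 7, also with a mean difference under its SD. Tgfbr1 was above Tgfbr2, Tgfbr2 above Ski, Skil above Tgfb1 and Tgfb1 above Smad2 in 7 of 7. The order was the same in dye-negative microglia. In dye-positive microglia Tgif1 stood above Smad7 in 4 of 4 libraries, and Tgfbr1 remained above Tgfbr2 in 4 of 4.

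**Figure D1:**
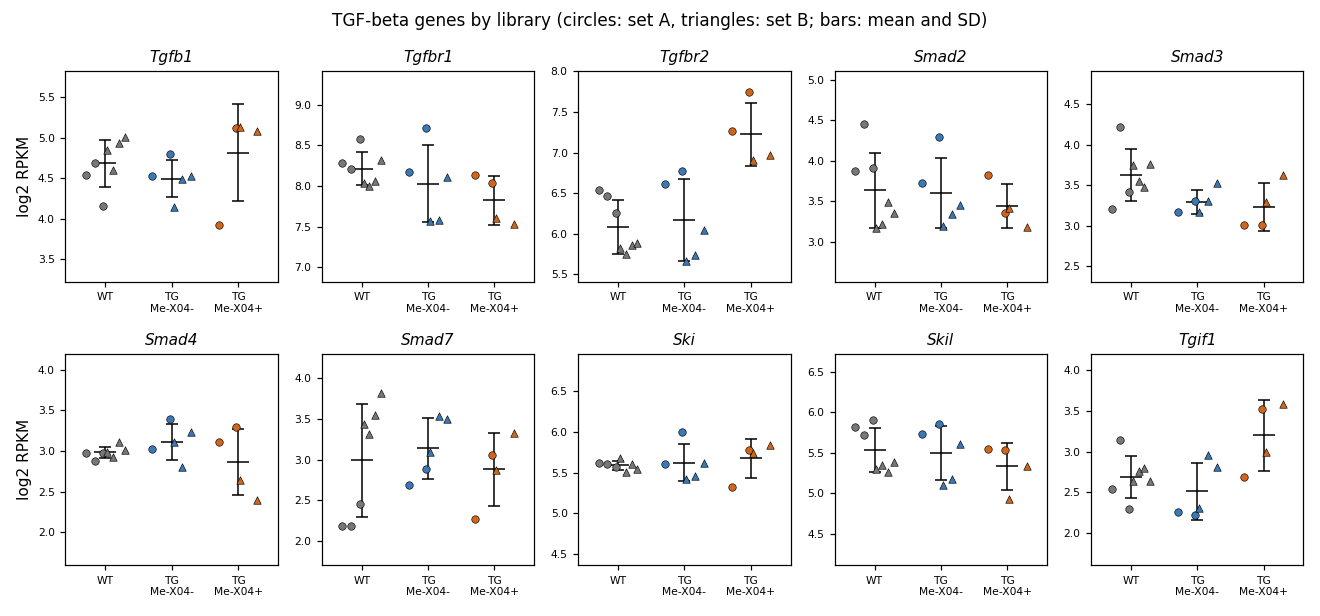
Level of each of the 10 genes (vertical axis, log2 RPKM) in the 16 libraries of WT, dye-negative (TG Me-X04-) and dye-positive (TG Me-X04+) microglia. Each symbol is 1 library (circles set A, triangles set B), and the bars show the mean and SD of the group. For Tgfbr2 the 4 dye-positive libraries (6.91 to 7.75) lie above all 12 others (5.66 to 6.78), while for the other 9 genes the groups overlap.

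Dye-positive microglia were compared with dye-negative microglia to see what goes with uptake of amyloid within 5xFAD mice. Tgfbr2, the gene of the ligand-binding type II receptor, was the only one of the 10 that rose, to 2.08 times its level, and none fell by limma on the deposited values or by limma voom on the recovered reads. The gene of its partner Tgfbr1 was not called, nor were the ligand gene, any SMAD gene or Ski and Skil. Tgif1, the gene of a SMAD corepressor, had a fold of 1.61 that missed the threshold. A gene was called differentially expressed (DE) at an adjusted p under 0.05 (limma, Benjamini-Hochberg over all 17951 genes) and a change of 0.7 or more in size on the log2 scale (log2FC), and by this rule 3.44% of all genes were higher and 2.06% lower. Of the 10 genes, 2 (Tgfbr2 and Tgif1) had an unadjusted p under 0.05, beside 18.7% of all genes, and 1 (Tgfbr2) had groups that did not overlap, beside 7.93% of all genes. The median log2FC of the 10 was -0.11, beside -0.09 over all genes.

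The levels of Tgfbr2 were 7.27, 7.75, 6.91 and 6.97 in the 4 dye-positive libraries, on 9754 to 15446 reads. They were 6.61, 6.78, 5.66, 5.74 and 6.04 in the 5 dye-negative libraries, on 6462 to 10431 reads. Every dye-positive library was thus above every dye-negative library. The log2FC was 1.06 (SE 0.27, 95% confidence interval 0.49 to 1.63, limma adjusted p = 0.0289). Within the animals the level was higher in the dye-positive cells in 4 of 4, by 0.65, 0.98, 1.24 and 1.23. Set A libraries had higher Tgfbr2 levels than set B libraries, and the difference was present within each, by 0.82 in set A as well as by 1.13 in set B, with no overlap in either.

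The Tgfbr2 call depended on how the libraries were scaled and on single libraries, though the sign did not change in any alternative run. It was lost without dye-negative replicate 3 (log2FC 0.93, limma adjusted p = 0.0725), replicate 4 (0.95, 0.0735) or replicate 5 (1.03, 0.0701), and without dye-positive replicate 1 (1.04, 0.0589) or replicate 2 (0.88, 0.0998). With the libraries scaled by the reads outside mitochondrial genes, whose share differs between the groups, the log2FC was 0.67 (limma adjusted p = 0.058), against a median over all genes of -0.49 in that setting. With quantile normalization it was 0.39 (limma adjusted p = 0.415). With a term for the 2 sets it was 0.99 (limma adjusted p = 9.49e-05). The sets were drawn from these same values, so this term lowers the residual spread over all genes by construction. Of the listed markers of endothelial and mural cells, which also express TGF-beta receptors, 2 of 6 (Pecam1 and Cdh5) were measured, each at 0 reads in 1 dye-positive library, and their summed level was 1.51-2.36 RPKM in dye-negative cells and 0.0394-6.44 RPKM in dye-positive cells, beside a geometric mean of 150 RPKM for Tgfbr2 in dye-positive cells. Whether such cells had a part in the Tgfbr2 value was not tested.

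Tgfbr1, the gene of the type I receptor, had levels of 8.13, 8.03, 7.60 and 7.53 in dye-positive cells and of 8.17, 8.71, 7.57, 7.58 and 8.11 in dye-negative microglia. The groups overlapped, and the log2FC was -0.20 (SE 0.25, interval -0.73 to 0.32, limma adjusted p = 0.722). With quantile normalization alone of the alternatives it was called lower (-0.91, limma adjusted p = 0.0276). The difference between the receptors within a library does not depend on how libraries are scaled to each other. Tgfbr2 minus Tgfbr1 was -0.86, -0.28, -0.69 and -0.56 in the 4 dye-positive libraries, -2.07 to -1.55 in dye-negative cells and -2.44 to -1.74 in WT. Per base of gene, Tgfbr1 was thus at 1.51 times the level of Tgfbr2 in dye-positive cells, 3.64 times in dye-negative cells and 4.38 times in WT (from mean differences of -0.60 ± 0.25, -1.86 ± 0.19 and -2.13 ± 0.28, SD, n = 4, 5 and 7). The dye-positive libraries did not overlap with either other group in this difference, which is given as a description with no test.

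**Figure D2:**
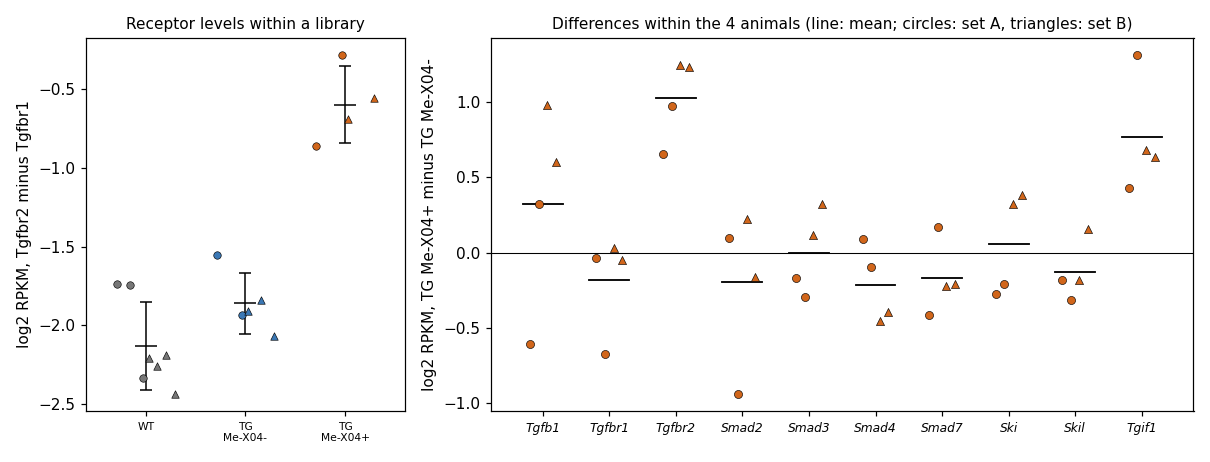
Left: level of Tgfbr2 minus level of Tgfbr1 within each library (vertical axis, log2 RPKM) by group, with mean and SD. Right: dye-positive minus dye-negative cells of each of the 4 TG animals (vertical axis, log2 RPKM) for the 10 genes, with a line at the mean; circles are set A and triangles set B. The dye-positive libraries lie between -0.86 and -0.28 on the left, and on the right Tgfbr2 and Tgif1 are above 0 in all 4 animals.

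Tgif1 had levels of 2.68, 3.53, 2.99 and 3.59 in dye-positive cells and of 2.25, 2.21, 2.31, 2.95 and 2.81 in dye-negative microglia, on 441 to 1593 reads. The groups overlapped over the pooled libraries. The log2FC was 0.69 (SE 0.25, interval 0.16 to 1.22), just under the fold threshold, with a limma adjusted p of 0.129. The level was higher in the dye-positive cells of 4 of 4 animals, by 0.43, 1.32, 0.68 and 0.64. Within each set the groups did not overlap, with a difference of 0.87 within set A and one of 0.60 within set B. A fit with the set as a term called the gene (log2FC 0.71, limma adjusted p = 0.0463), though that term lowers the residual spread by construction.

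Tgfb1, the ligand gene, had levels of 3.92, 5.12, 5.13 and 5.09 in dye-positive cells and of 4.52, 4.80, 4.15, 4.49 and 4.52 in dye-negative microglia. Dye-positive replicate 1 was the lowest of all 16 libraries and the other 3 the highest, so the group held both ends of the range. The log2FC was 0.32 (SE 0.25, interval -0.21 to 0.85, limma adjusted p = 0.555), and in the animals the difference was -0.61, 0.32, 0.98 and 0.60.

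The receptor-regulated SMAD genes Smad2 and Smad3 had levels of 3.19 to 3.82 and 3.00 to 3.62 in dye-positive cells, and of 3.20 to 4.296 and 3.17 to 3.53 in dye-negative microglia. Their log2FC values were -0.16 (SE 0.28, interval -0.75 to 0.43) and -0.06 (SE 0.21, interval -0.52 to 0.39). Each was higher in the dye-positive cells of 2 of 4 animals. The common Smad4 had levels of 3.11, 3.29, 2.65 and 2.40 in dye-positive cells and of 3.02, 3.39, 3.11, 2.80 and 3.23 in dye-negative cells. Its log2FC was -0.25 (SE 0.20, interval -0.68 to 0.19). The groups did not overlap in set B, where the difference was -0.52, and overlapped in set A, where it was -0.0028.

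Smad7, which encodes the inhibitory SMAD and is itself a target of the pathway, had levels of 2.27, 3.05, 2.87 and 3.33 in dye-positive cells and of 2.68, 2.89, 3.09, 3.54 and 3.51 in dye-negative microglia. Its log2FC was -0.26 with the widest interval of the 10 genes (SE 0.36, interval -1.02 to 0.50). Smad7 was also the gene on which the sets differed most, with a mean level of 2.57 for set A against 3.34 for set B. Ski had levels of 5.33, 5.78, 5.74 and 5.84 in dye-positive cells and of 5.42 to 5.99 in dye-negative cells, with a log2FC of 0.05 and the narrowest interval (SE 0.16, interval -0.29 to 0.40). Its relative Skil had levels of 4.93 to 5.54 and of 5.11 to 5.86, with a log2FC of -0.16 (SE 0.21, interval -0.61 to 0.29). For Smad2, Smad3, Smad4, Smad7, Ski and Skil the limma adjusted p values were between 0.58 and 0.911.

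**Figure D3:**
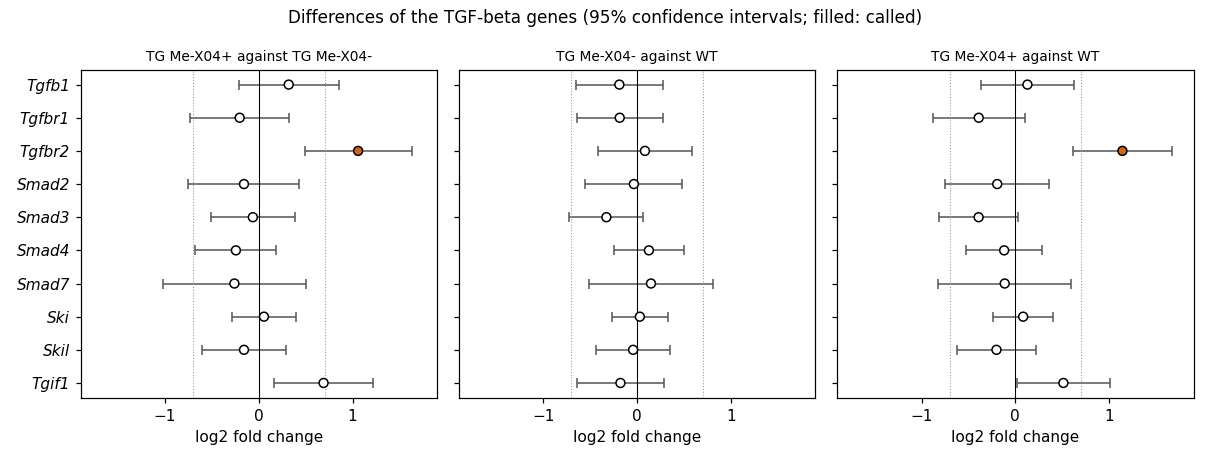
Log2 fold changes (horizontal axis) of the 10 genes in the 3 comparisons, with 95% confidence intervals from limma; filled symbols are called and dotted lines mark the fold threshold of 0.7. Tgfbr2 is filled at 1.06 against dye-negative cells and at 1.14 against WT, and no gene is filled between dye-negative cells and WT.

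Dye-negative microglia were compared with WT microglia for what goes with the transgenes, or with age, in cells without the dye. None of the 10 genes was called, and none had an unadjusted p under 0.05, by limma on the deposited values or, for the calls, by limma voom on the recovered reads. Over all genes 0.189% were called higher and 0.0111% lower, 5.18% had an unadjusted p under 0.05 and 1.06% had groups that did not overlap, which held for 0 of the 10. The median log2FC of the 10 was -0.04, beside 0.01 over all genes. Tgfbr2 had WT levels from 5.75 to 6.54 with a median of 5.89, and the log2FC was 0.08 (SE 0.24, interval -0.41 to 0.58, limma adjusted p = 0.999). Tgfbr1 had WT levels from 8.003 to 8.59 with a median of 8.21, and the log2FC was -0.19 (interval -0.64 to 0.27). Smad3 was farthest from 0, with WT levels from 3.20 to 4.21 (median 3.55) and a log2FC of -0.33 (SE 0.19, interval -0.72 to 0.07). Intervals of the other 7 genes lay between -0.65 and 0.81, so that a change of 2-fold, which is 1 log2 unit, lay outside the interval of each of the 10 genes.

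Dye-positive microglia were then compared with WT microglia. Tgfbr2 rose to 2.21 times its WT level and was again the only one of the 10 genes that was called, beside 8.25% of all genes called higher and 6.02% called lower. The log2FC was 1.14 (SE 0.25, interval 0.61 to 1.67, limma adjusted p = 0.00465), and the 4 dye-positive libraries (6.91 to 7.75) lay above all 7 WT libraries (5.75 to 6.54), beside groups that did not overlap in 10.5% of all genes. Within set A it was 1.09, and within set B 1.11. Leaving out any 1 library kept this call, while quantile normalization lost it (log2FC 0.49, limma adjusted p = 0.156) and called Tgfbr1 lower (-1.16, limma adjusted p = 0.00113). Tgif1 had WT levels from 2.29 to 3.14 (median 2.64) and a log2FC of 0.51 (SE 0.23, interval 0.02 to 1.01, limma adjusted p = 0.163). Tgfbr2 and Tgif1 had an unadjusted p under 0.05, 2 of the 10 genes beside 27.8% of all genes. Tgfbr1 and Smad3 had log2FC values of -0.39 each, with intervals of -0.88 to 0.10 and -0.81 to 0.03. The other 6 genes had log2FC values between -0.20 and 0.13.

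Whether a gene changed by another amount from dye-negative cells to dye-positive cells than from WT to dye-negative cells was tested as a contrast in the same fit, with dye-negative cells shared by both steps. None of the 10 genes was called by limma or by limma voom on the recovered reads, as was the case for 0% of all genes by limma. Tgfbr2 had a difference between the steps of 0.97 (interval 0.05 to 1.902, adjusted p = 0.9) and Tgif1 one of 0.87 (interval 0.01 to 1.73, adjusted p = 0.928), both from limma. These were the 2 of the 10 genes with an unadjusted p under 0.05, beside 5.33% of all genes. The rise of Tgfbr2 with the dye and its value between dye-negative cells and WT were therefore not shown to differ.

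The further machinery of the TGF-beta branch was read from 39 genes for latency, activation, co-receptors, SMAD cofactors and ubiquitin ligases, of which 30 were listed. The genes Tgfb2 and Tgfb3, and those of the latent binding proteins apart from Ltbp3, were not among the listed genes. In dye-positive cells against dye-negative microglia 1 of the 30 was called higher, none lower and 6 had an unadjusted p under 0.05 (3.44%, 2.06% and 18.7% of all genes), with a median log2FC of -0.02. Over the alternatives 1 to 3 were called higher and 0 to 1 lower. The gene called was Dab2, an endocytic adaptor that binds receptors and SMADs and is also expressed by border macrophages. Its levels were 3.73, 3.91, 2.85 and 4.07 in dye-positive cells and 2.53, 2.06, 1.70, 1.76 and 1.91 in dye-negative cells, with no overlap. The log2FC of Dab2 was 1.65 (SE 0.34, limma adjusted p = 0.00936), and whether the border macrophage markers given above had a part in it was not tested. Nrros, which anchors latent TGF-beta on microglia, had a log2FC of -0.99 (SE 0.49, limma adjusted p = 0.292), and Itgav, of the activating integrin, one of -0.37 (SE 0.16, limma adjusted p = 0.209).

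In dye-negative cells against WT none of these 30 genes was called by limma or by limma voom, and 1 had an unadjusted p under 0.05 (5.18% of all genes). In dye-positive cells against WT 3 were called higher (Dab2, Thbs1 and Itgb8) and 2 lower (Eng and Tgif2), beside 8.25% and 6.02% of all genes. Of these, the last 4 are named here after their values were seen. Itgb8 encodes the integrin chain that releases TGF-beta from its latent form and rested on 0 to 8 reads in WT and 12 to 80 in dye-positive cells, so its fold is not given. Thbs1, for the activator thrombospondin, had a log2FC of 2.10 (SE 0.43, limma adjusted p = 0.00275). Eng, the co-receptor endoglin that is high in endothelial cells, had one of -1.46 (SE 0.42, limma adjusted p = 0.0244). Its level was 0.29 in dye-positive replicate 1 and 2.48 to 2.89 in the other 3 dye-positive libraries. Without replicate 1 the call was lost (-0.85, limma adjusted p = 0.0679). It was also lost with the replicate block (-1.29, limma adjusted p = 0.0725), which joins WT libraries to other animals of equal number. Comparing only the 2 groups lost the Eng call too (limma adjusted p = 0.055). The endothelial marker Pecam1 was called lower in the same comparison (log2FC -4.83, SE 1.03, limma adjusted p = 0.0036), and the summed level of Pecam1 and Cdh5 had a median of 9.90 RPKM (2.28-12.6) in WT and of 0.327 (0.0394-6.44) in dye-positive cells. Whether these markers had a part in the Eng value was not tested. Tgif2, a relative of Tgif1, had a log2FC of -2.72 (SE 0.68, limma adjusted p = 0.0109), with 2 to 227 reads in dye-positive cells and 134 to 350 in WT. Its levels were -3.96 and -2.09 in dye-positive replicates 1 and 2 (set A), on 2 and 12 reads. They were 0.43 and 1.34 in replicates 3 and 4 (set B), and the last overlaps the WT range of 1.24 to 1.96. Leaving out single libraries kept the call, with values from -3.52 to -1.76.

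Of 32 genes of the BMP and activin branch, which uses other receptors and SMADs, 15 were listed. In dye-positive cells against dye-negative cells 1 was called higher and 1 lower (3.44% and 2.06% of all genes), with a median log2FC of 0.11. Over the alternatives 0 to 1 were called higher and 0 to 3 lower. Nbl1, a secreted BMP antagonist, had 57 to 131 reads in dye-positive cells and 5 to 29 in dye-negative cells (log2FC 2.96, SE 0.68, limma adjusted p = 0.0171), a call that library weights took away (2.93, limma adjusted p = 0.0614). Rgmb, a BMP co-receptor, had levels of 2.21, 0.62, 1.19 and 1.72 in dye-positive cells and of 2.27, 2.18, 2.81, 2.77 and 2.97 in dye-negative cells. The groups overlapped at 2.18 and 2.21. The log2FC of Rgmb was -1.17 (SE 0.32, limma adjusted p = 0.0422), and the call was lost with the replicate block (-1.09, limma adjusted p = 0.0795). It was also lost without dye-negative replicate 3, 4 or 5 or dye-positive replicate 2 or 3 (-1.13 to -0.89). No variance trend (limma adjusted p = 0.0539) and only the 2 groups compared (0.118) took the Rgmb call away too. None of the 15 was called in dye-negative cells against WT by limma or limma voom, with none at an unadjusted p under 0.05. Against WT, 2 were called higher in dye-positive cells (Nbl1 and Bambi) and 2 lower (Rgmb and Smad1), beside 8.25% and 6.02% of all genes. Bambi and Smad1 are named after their values were seen. The Bambi call was lost without dye-positive replicate 2 (2.69, limma adjusted p = 0.0762) or 3 (2.61, 0.0748). Library weights (2.74, limma adjusted p = 0.0702), only the 2 groups compared (2.91, 0.0692) and log2(RPKM + 1) (0.32, 0.0854) lost it too. Bambi rested on few reads, 0 to 45 in WT and 14 to 71 in dye-positive cells. The groups overlapped, with levels of -5.72 to -0.84 in WT and of -2.55 to -0.66 in dye-positive cells.

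Of 24 genes that TGF-beta commonly induces through SMADs in various cells, 17 were listed, and 3 of these (Itgb8, Pmepa1 and Thbs1) are in the machinery list too. In dye-positive cells against dye-negative cells 1 was called higher, 1 lower and 9 had an unadjusted p under 0.05, beside 3.44%, 2.06% and 18.7% of all genes, with a median log2FC of -0.01. The counts depended on the processing, with 0 to 4 called higher and 1 to 4 lower over the alternatives. Bhlhe40, a transcriptional repressor with many other inputs, had levels of 1.59, 3.58, 3.09 and 3.54 in dye-positive cells and of 1.09, -0.10, -1.34, 0.94 and -0.89 in dye-negative cells. The groups did not overlap, and its log2FC was 3.01 (SE 0.64, limma adjusted p = 0.0107). Tgm2, for transglutaminase 2, had levels of 0.47, 0.50, 1.17 and -2.22 in dye-positive cells and of 3.12, 3.56, 2.80, 2.83 and 2.63 in dye-negative cells. It fell by 3.01 log2 units (SE 0.47, limma adjusted p = 0.00129), with no overlap. Pmepa1, which feeds back on SMAD signalling, had a log2FC of 0.08 (SE 0.31, limma adjusted p = 0.92) and Ldlrad4 one of -0.43 (SE 0.35, limma adjusted p = 0.573).

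Between dye-negative cells and WT, 1 of these 17 genes was called higher and none lower, beside 0.189% and 0.0111% of all genes. It was Bhlhe40, with 33 to 157 reads in dye-negative cells and 0 to 9 in WT (log2FC 3.80, SE 0.56, limma adjusted p = 0.00378). The call was lost by limma voom on the reads (4.50, adjusted p = 0.105) and on log2(RPKM + 1) (0.94, adjusted p = 0.432). It was also lost with the replicate block (3.41, limma adjusted p = 0.0663), which joins WT libraries to other animals of equal number. Between dye-positive cells and WT, 5 were called higher and 4 lower, beside 8.25% and 6.02% of all genes. The median log2FC of the 17 was -0.09, beside -0.11 over all genes. Of those that were lower, Klf10 had a log2FC of -1.77 (SE 0.44, limma adjusted p = 0.0111) and Tgfbi one of -1.17 (SE 0.25, limma adjusted p = 0.00432), both named after their values were seen.

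All 22 genes of a list of homeostatic microglial genes that depend on TGF-beta were listed. In dye-positive cells against dye-negative cells, 2 were called lower and none higher, beside 2.06% and 3.44% of all genes. The median log2FC was -0.07, beside -0.09 over all genes. Over the alternatives 1 to 9 were called lower, with 9 under quantile normalization, 6 with the scaling by reads outside mitochondrial genes and 1 to 3 when a single library was left out, and none was called higher. Tmem119, a microglial surface marker, had levels of 5.66, 6.58, 7.19 and 7.01 in dye-positive cells and of 7.79, 8.15, 8.41, 8.42 and 8.17 in dye-negative cells. It fell by 1.58 log2 units (SE 0.32, limma adjusted p = 0.00821), with no overlap. Slc2a5, a fructose transporter gene, fell by 0.87 (SE 0.22, limma adjusted p = 0.0278), a call that was lost with the replicate block (-0.84, limma adjusted p = 0.0548). It was also lost without dye-negative replicate 3, 4 or 5 or dye-positive replicate 1 or 2 (-0.86 to -0.67). No variance trend (limma adjusted p = 0.0552) and only the 2 groups compared (0.101) took the Slc2a5 call away too. With library weights its log2FC of -0.69 (limma adjusted p = 0.0299) was under the fold threshold. Sall1, a transcription factor gene of microglial identity, had a log2FC of -0.54 (SE 0.27, limma adjusted p = 0.301), P2ry12 one of -0.45 (SE 0.28, limma adjusted p = 0.431) and Olfml3 one of 0.00 (SE 0.19, limma adjusted p = 0.997). None of the 22 was called in dye-negative cells against WT by limma or limma voom, with 1 at an unadjusted p under 0.05 (5.18% of all genes). Against WT, 5 were called lower and none higher in dye-positive cells, with 8 at an unadjusted p under 0.05. Over all genes 6.02% were called lower, 8.25% were called higher and 27.8% had such a p. With limma voom, the replicate block or the set term, 1 of the 22 was called higher. The count of lower genes was 3 with median centring and 14 with quantile normalization, the ends of its range over the alternatives. The lower ones were Tmem119, Slc2a5, P2ry12, P2ry13 and Mef2a, the last 3 named after their values were seen. The call of P2ry12 was lost without dye-positive replicate 4 (-0.91, limma adjusted p = 0.054) and that of P2ry13 without replicate 3 (-0.92, 0.0574). In the other cases above where no gene of a list was called in a direction, limma voom on the recovered reads called none either.

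**Figure D4:**
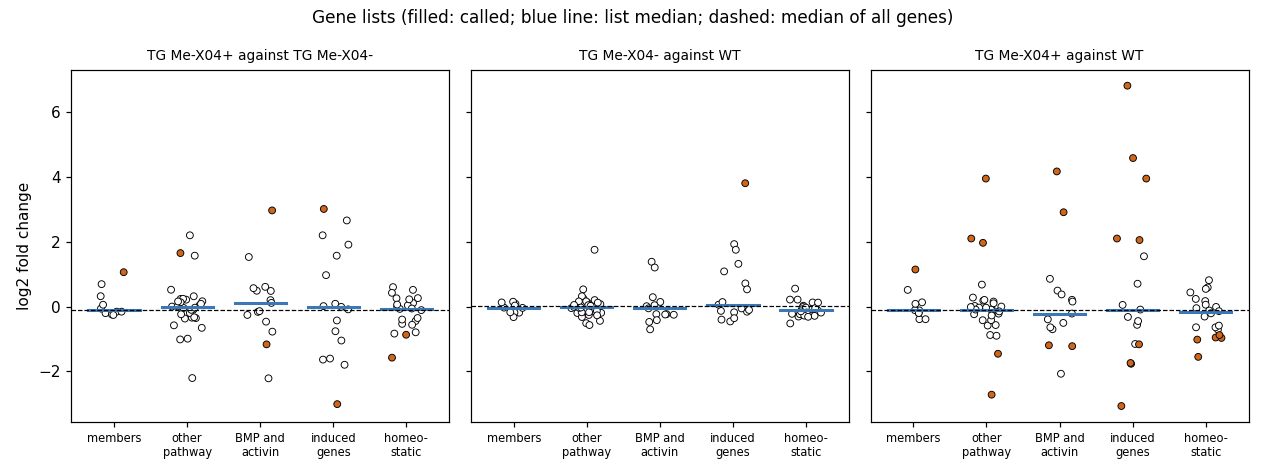
Log2 fold change (vertical axis) of every listed gene of the 10 pathway genes and the 4 lists, in the 3 comparisons. Filled symbols are called genes, the blue line is the median of the list and the dashed line the median of all genes; in the first comparison, called genes lie on both sides of 0 for the BMP and activin list and for the induced genes, and the medians of all 5 groups of genes lie between -0.11 and 0.11.

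The genes whose level followed the receptors most closely over the 16 libraries were sought among 7397 genes with a symbol and a mean of at least 2, as a description. The libraries share depth, set and, in 4 pairs, the animal. For Tgfbr2 the 4 closest were Slc44a1 (Pearson r = 0.973), Aplp2 (0.961), the lysosomal protease gene Ctsd (0.960) and Dnajb14 (0.959), whose log2FC values between dye-positive cells and dye-negative cells ran from 1.42 to 2.16. For Tgfbr1 the 5 closest were Tnrc6b (0.918), Ppm1b (0.916), Cggbp1 (0.897), Foxo1 (0.896) and Gsk3b (0.894), whose log2FC values in the same comparison ran from -0.37 to -0.14. No gene named here was in both lists.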

How the data were processed

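RNA sequencing of sorted microglia was analysed from the values deposited for 16 libraries. As the labels and the methods of the study state, the authors trimmed reads with Trim Galore 0.4.4, aligned them to GRCm38 with STAR 2.5.4b (reads mapping to several positions were kept up to a limit), obtained gene counts with featureCounts on a Gencode annotation, left out genes with low counts and applied TMM scaling in edgeR 3.24.3. The authors deposited log2 RPKM values with a small prior count. Strandedness of the counting is not given in the sources used here. Columns of the authors' own comparisons (fold changes, p-values, scores) were not used.

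For the tests, 1 linear model with 3 groups was fitted to the deposited log2 values (R 4.3.3, limma 3.58.1; moderated with a trend of the variance on the level; two-sided; Benjamini-Hochberg over 17951 genes), with a gene called at an adjusted p under 0.05 and a log2 difference of at least 0.7 in size. These thresholds are those of the methods, whose quasi-likelihood test needs counts and was not run. Whole reads could be read back from the step size of the low values (100% whole within 0.01 reads) for depths and for limma voom as an alternative. No filter or pseudocount was added in the main test, and replicate numbers were not a term in it. Depth limits precision mainly for genes of a few reads, and p-values measure the spread between these libraries.

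The members and the gene lists were chosen with earlier results of these data known. Named are all 10 members, list genes called (at most 6 by size between the 2 TG groups and at most 4 between TG Me-X04- and WT), and the 5 genes most correlated with each receptor gene. Other genes are said to be named after their values were seen, or stand as examples that were not called. A few genes that the rule or the lists hold are not reported here.

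Pairing of the TG libraries comes from the labels, which give equal numbers 1 animal. Deviations from the group means correlated in all 4 pairs (r 0.292 to 0.329), against a mean of 0.272 for other numbers of the same set. Equal numbers of WT are other animals, and the replicate block named below joins them to TG libraries all the same. The main test was also run on simulated independent counts with 1 common dispersion for all genes. These had no animal pairs and no sets, so they cannot show how the test behaves with the pairs and sets of these libraries. Alternatives were other variance models, library weights, scalings, filters at a mean of 0 or 2, pseudocounts of 0.1 and 1, no fold threshold, only the 2 groups compared, a set term, a replicate block and leaving out single libraries. Promoter windows came from a RefSeq table, coordinates from a later Gencode release on the authors' build, and figures from matplotlib 3.10.9 in Python 3.11.15.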

Additional observations from a re-analysis of the deposited data

Results flagged for a closer look

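In dye-positive (TG Me-X04+) microglia, Tgfb1 was at 3.92 log2 RPKM in replicate 1 and at 5.09 to 5.13 in the other 3 libraries, a gap that is large for a group of 4 by Dixon's test at the 95% level. It was the 1 gap of this size among 30 groups checked (10 genes in 3 groups), and chance alone gives about 1 in 20. The library lies in set A with 510 reads on Tgfb1, while replicate 2 of the same set was at 5.12 on 1329 reads.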

How the results depend on the processing

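Of the 30 member comparisons between groups, 25 kept their call or lack of one in every alternative run, 14 of 770 values did not, and none reversed a called direction. Between dye-positive and dye-negative cells the count of members called higher was 1, and 0 with no variance trend (Tgfbr2 adjusted p = 0.0507), median centring (0.0688), quantile normalization, scaling by the reads outside mitochondrial genes or only the 2 groups compared (0.0931), all by limma. The count was 2 with the set term, whose sets were drawn from these same values. It ranged from 0 to 1 when each TG library was left out. Quantile normalization called 1 member lower (Tgfbr1) there and against WT, where the count of higher members was then 0 instead of 1. The cause was not tested. The replicate block holds the TG pairs but also joins WT libraries to TG libraries of equal number, which are other animals. Its values against WT thus carry a pairing that does not exist, and those between the TG groups come from the same fit. With this block, the Tgfbr2 value between the TG groups became 0.99 (adjusted p = 0.0136, limma) and remained called. The block took away the calls of Rgmb, Slc2a5 and Bhlhe40 given with their values and, against WT, those of Eng (-1.29), Bambi (2.88, limma adjusted p = 0.0501), Rgmb (-1.05, 0.0504) and Klf10 (-1.60, 0.0627), and it changed no other call of the members or of the list genes named as called. For list genes named after their values were seen, these alternatives were added after seeing the data. Over all genes, 617 were called higher and 369 lower between the TG groups, against 249 and 948 with the scaling outside mitochondrial genes (20.8% higher among called instead of 62.6%), 50.8% higher with quantile normalization, 347 and 123 with only the 2 groups, 486 and 169 with a mean of at least 2, and 1324 and 818 with the set term. Leaving out 1 TG library gave 340 to 543 higher and 212 to 496 lower, with 340 and 212 without dye-negative replicate 5, 242 lower without dye-negative replicate 4 and 374 higher without dye-positive replicate 2. Between TG Me-X04- and WT the 34 higher and 2 lower genes ranged over the alternatives from 12 with log2(RPKM + 1) to 143 with library weights and from 0 with the block to 32 with library weights. Between TG Me-X04+ and WT, 57.8% of called genes were higher, and 32.8% with the scaling outside mitochondrial genes. The number of libraries limits small differences: the SE of a member's log2FC between the TG groups was 0.16 to 0.36.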
